A study of Rattus norvegicus with 145 samples.

Results

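Striatum-enriched genes were taken as those whose mean transcript level in wild type (WT) striatum at 19 months was at least 2 TPM (transcripts scaled by length and by the total of the library) and at least 4 times the mean in both cerebral cortex and cerebellum of WT animals of that age. Of the 32883 genes measured, 206 passed both thresholds. After 6 of them were set aside by identifier, 200 genes remained, and these are described here at 2, 6, 10, 19 and 24 months of age. The 19-month WT libraries of all 3 regions chose the genes, so the 19-month values are given as a description with no test.

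The animals were Long Evans rats, either WT or heterozygous for a Q130 knock-in (KI) that models Huntington's disease, the disorder caused by an expanded CAG repeat in huntingtin. Bulk RNA sequencing gave 63 striatum, 51 cortex and 31 cerebellum libraries from 63 animals. At 10 and 19 months there were 5 females and 5 males of each genotype. The oldest group, of 24 months, was made up of 7 KI animals (3 females, 4 males) and 4 WT animals (2 females, 2 males). At 2 and 6 months there were 3 males of each genotype, which the submitters took from earlier work as controls of the pipeline, so age below 10 months cannot be told apart from that set of libraries. The ages are different animals, and the labels give no sequencing batch. Striatum libraries held about 26666500 to 34526700 counts each. KI 24-month male 1 and male 2 stood apart: the mean log2 level of 136 genes enriched in cortex by the same thresholds was 1.10 and 1.54 in them, against at most 0.48 in the WT libraries of that age, and 0.74 in KI female 3. Results that use 24 months in striatum are therefore given with and without these males as members' summaries and for the 4 genes named by identifier. Genes described by rank are given with these males only. At 19 months KI male 5 (1.22) and KI female 5 (0.56) exceeded the WT maximum of 0.51, and KI male 3 had the lowest mean Spearman correlation with its group of all striatum libraries, 0.953.

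The striatum is built largely of medium spiny neurons, GABAergic projection cells that receive cortical and dopaminergic input. Their identity rests on genes for dopamine and neuropeptide signalling, cyclic nucleotide turnover, G protein regulators and the transcription factors that maintain them. Reduced expression of such genes is a well known feature of striatum in Huntington's disease and in rodent models of it. The files give Ensembl gene identifiers without symbols, and 0 of the 32883 identifiers matched the gene table at hand. Which member is which of these genes, the level of huntingtin itself, and the defining markers of striatal cells were therefore not examined. Members are described by identifier for 4 genes and otherwise by their rank by TPM in WT striatum at 19 months.

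The 200 genes spanned 2.04 to 790 TPM in WT striatum at 19 months, with a median of 6.86 TPM. Above 100 TPM there were 18 genes, and 69 lay under 5 TPM. The median ratio over the next highest region was 5.92, the highest 49.8, and that next region was cortex for 138 genes and cerebellum for 62. The genes nearest the thresholds lay at 2.04 TPM inside against 2.00 outside, and at 4.01-fold inside against 3.999-fold outside. There were 39 members between 4-fold and 4.5-fold, and 52 genes just outside between 3.5-fold and 4-fold.

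The enrichment was also present in libraries that did not choose the genes. In WT animals of 24 months all 200 genes were higher in striatum than in both other regions, and 134 were at least 4 times higher than both. In KI animals of 24 months all 200 were again higher than in both regions, and 111 reached 4 times both. Over cortex alone, 181 genes reached 4-fold in WT and 167 in KI animals at 10 months, and 153 in WT and 135 in KI animals at 24 months. The median ratio of striatum to cortex at 24 months was 6.03 in WT and 5.08 in KI animals. At 19 months in KI animals, all 200 genes were higher in striatum than in both other regions, and 158 reached 4 times both.

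The members did not vary as 1 set from animal to animal. Deviations of log2(TPM + 0.1) from the mean of each age and genotype were correlated between genes over the 63 striatum libraries and grouped by average linkage. The grouping was made after the values were seen and is a description with no test. It gave a larger cluster of 104 genes, a smaller cluster of 66 genes, and 30 other genes in 13 small clusters. Over these libraries the median Pearson's r between genes was 0.62 within the larger cluster, 0.75 within the smaller cluster and 0.014 between the clusters. The points share libraries, and 1 library moves every gene of a cluster together, so the genes of a cluster are not independent observations.

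**Figure D1:**
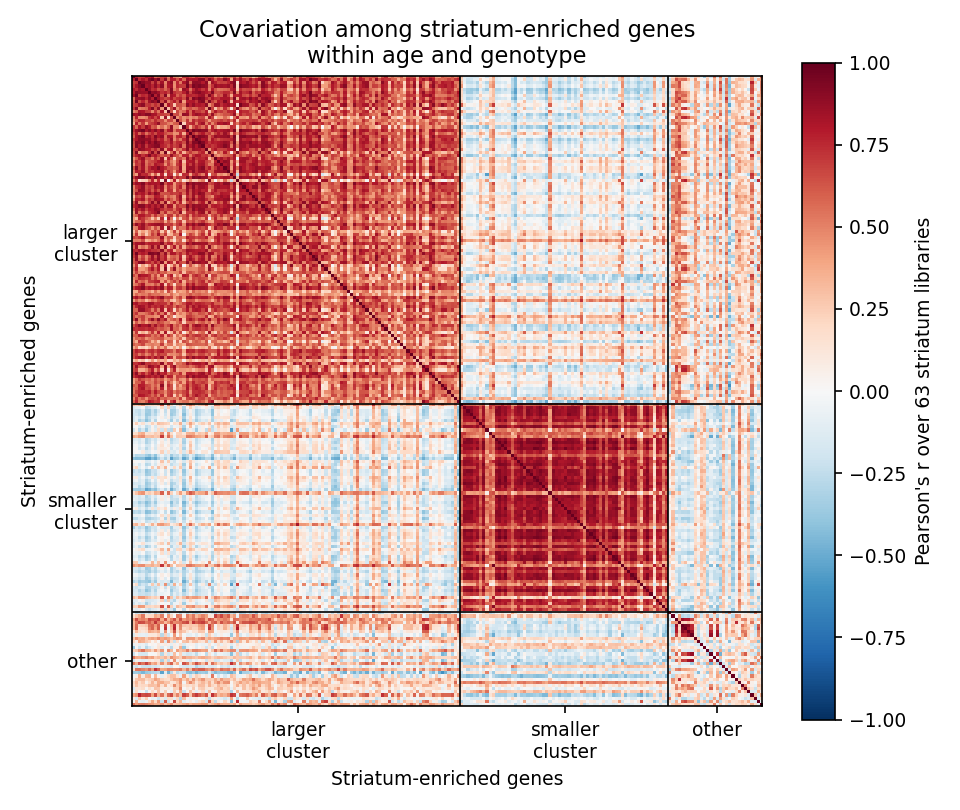
Pearson's r between each pair of the 200 striatum-enriched genes over 63 striatum libraries, after the mean of each age and genotype was removed from log2(TPM + 0.1). Genes are ordered by cluster and then by level. Red squares on the diagonal are the larger cluster (104 genes, median r 0.62) and the smaller cluster (66 genes, median r 0.75), and the pale area between them has a median r of 0.014.

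The clusters were built on these same libraries, so higher r within than between them was partly fixed beforehand. Within 2 months the median r was 0.37 in the larger cluster, 0.33 in the smaller and -0.07 between them. Within 6 months it was 0.24, 0.62 and -0.27. Within 10 months the median r was 0.70 in the larger cluster, 0.78 in the smaller and -0.08 between them, and within 24 months it was 0.78, 0.71 and -0.27. The exception was 19 months, where the value between the clusters was 0.34 against 0.52 and 0.82 within them. When the clusters were rebuilt without the libraries of 24 months, those libraries gave 0.75, 0.64 and -0.25. The same step gave 0.37, 0.33 and -0.07 at 2 months and 0.24, 0.61 and -0.27 at 6 months. It gave 0.64, 0.75 and -0.10 at 10 months and 0.46, 0.86 and 0.30 at 19 months. In cortex the larger cluster was loosely correlated, at 0.10 to 0.29 by age, and the smaller at 0.19 to 0.31. In cerebellum the larger cluster had a median r of 0.04 to 0.07 while the smaller cluster kept 0.42 and 0.60 at 19 and 24 months.

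The clusters differed in level. The larger cluster had a median of 18.4 TPM in WT striatum at 19 months and a median enrichment of 6.99-fold. Of the 40 members of highest level it held 38. The smaller cluster had a median of 4.42 TPM, a highest level of 29.7 TPM and a median enrichment of 5.10-fold, and it held none of the 40 highest. It held 34 of the 40 most variable members, with a median SD of 0.65 (log2) within age and genotype against 0.38 for the larger cluster. The mean of the 6 genes set aside varied with the larger cluster, with a median r of 0.76 per gene, and not with the smaller one, at -0.11.

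In striatum no member passed the test of KI against WT animals at 2, 6, 10 or 24 months, and the medians of the 2 clusters took different courses over age, a difference that was not tested. The larger cluster was slightly higher in KI animals at 2 and 6 months, level at 10 months, a little lower at 19 months and lower at 24 months. Its median log2 differences, KI minus WT, were 0.18, 0.08, 0.00, -0.08 and -0.48. The smaller cluster was lower at each age, with medians of -0.09, -0.10, -0.49, -0.09 and -0.44. The other 30 genes had medians of 0.15, 0.02, 0.18, -0.01 and -0.11. Over all genes tested the median lay between -0.01 and 0.01 at every age. Because these are whole pieces of tissue, fewer cells of a type and less RNA per cell cannot be told apart.

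**Figure D2:**
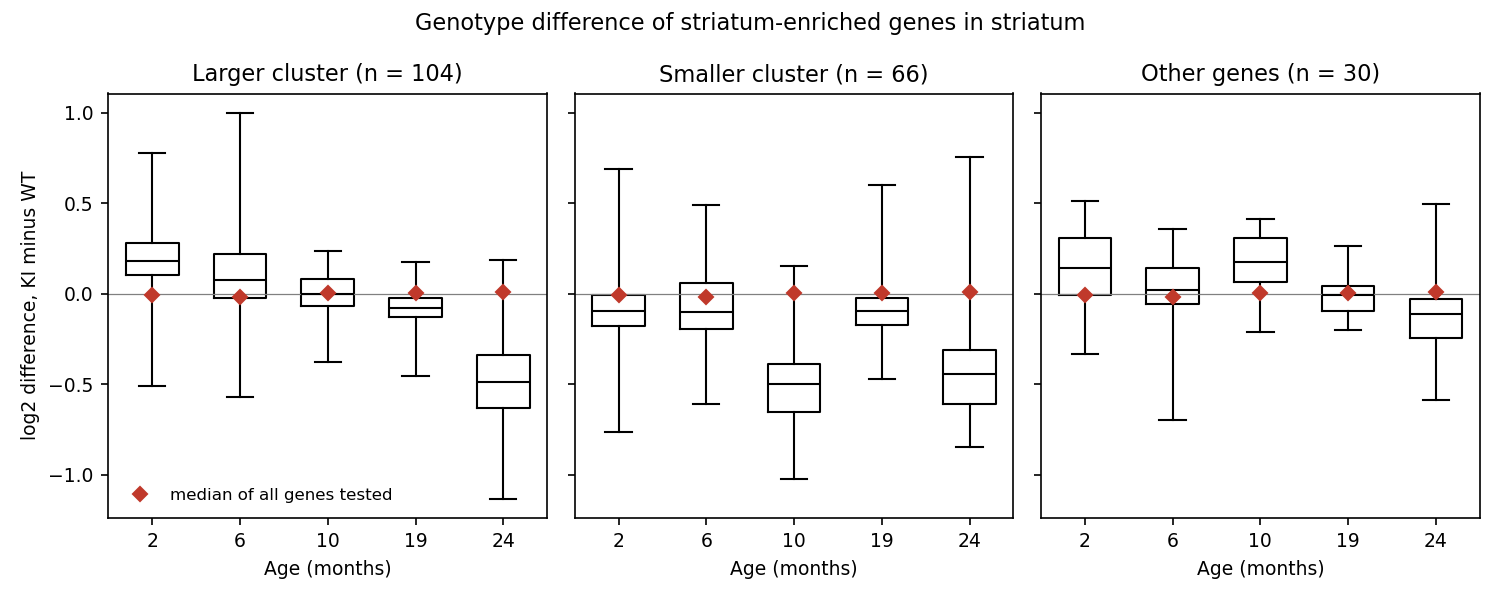
Log2 difference, KI minus WT, of striatum-enriched genes in striatum at 5 ages, for the larger cluster, the smaller cluster (65 of its 66 genes at 2 months) and the other 30 genes. Boxes give the quartiles and median over genes, whiskers the lowest and highest gene, and red diamonds the median of all genes tested. At 10 months the box of the smaller cluster lies below 0, with a median of -0.49, while that of the larger cluster is centred on 0.00.

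At 2 months 199 of the 200 genes passed the filter on low counts and 0 were called at an adjusted p under 0.05 in edgeR's quasi-likelihood test, as were 0% of all genes in either direction. The members' median was 0.11 (log2), and 132 were higher in KI animals. At an unadjusted p under 0.05 there were 44 members, 33 of them in the larger cluster, against 6.22% of all genes. That count was 1 when the spread was estimated over all striatum libraries in 1 fit, 18 with the cortex-enriched score as a covariate, and 22 to 58 when 1 library was left out (lowest without KI male 1, highest without KI male 3). The share of all genes belongs to the main fit and was not computed for these alternatives. Cortex-enriched genes had a median of -0.14 at this age, with 24 of 111 higher in KI animals and 0 called. Their part in the result was not tested beyond that covariate. All 3 KI animals lay above all 3 WT animals for 30 members, 24 of them in the larger cluster, against 5.38% of all genes. All 3 lay below for 2 members, against 5.8%.

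The per-library means show the size of this. For the larger cluster the mean log2(TPM + 0.1) over its genes was 3.77, 3.79 and 3.81 in the WT males of 2 months, and 3.81, 4.05 and 4.07 in the KI males. One of the 3 KI libraries therefore lay within the WT range and the other two above it.

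At 6 months 0 of 200 members were called, against 0.013% of all genes that rose and 0% that fell. The members' median difference was 0.03, and 22 had an unadjusted p under 0.05, against 8.22% of all genes. That count was 2 in 1 fit of all striatum libraries, 62 with each library's slope on transcript length as a covariate, 36 with the cortex-enriched score, 9 without KI male 2 and 44 without WT male 2. For these alternatives the share of all genes was not computed. The cortex-enriched genes had a median of -0.20, with 23 of 107 higher and 0 called. The KI animals lay above all WT animals for 14 members, 13 of them in the larger cluster, against 7.63% of all genes, and below for 3 members, against 7.1%. The mean of the larger cluster was 3.64, 3.69 and 3.89 in WT libraries and 3.87, 3.92 and 3.93 in KI libraries. The groups overlapped by 1 WT library.

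At 10 months, with 10 animals of each genotype, 0 members were called, against 0% of all genes that rose and 0.00654% that fell. In the smaller cluster 65 of its 66 genes were lower in KI animals, 32 of them by more than 0.5 (log2), and its median corresponds to 71.0% of the WT level. Of the 21 members with an unadjusted p under 0.05, 15 were in the smaller cluster and lower, and the other 6 were among the 30 genes outside both clusters and higher. Over all genes 5.78% had such a p. In the larger cluster 51 of 104 genes were lower and 0 had an unadjusted p under 0.05. The count of 21 was 52 without KI female 1, 12 without WT male 2 and 33 with the cortex-enriched score as a covariate, and with that covariate the median of all members turned from -0.04 to 0.08. Shares of all genes were not computed for these alternatives. The cortex-enriched genes had a median of 0.11, with 73 of 103 higher and 0 called.

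The per-library mean of the smaller cluster at 10 months ran from 1.29 to 2.61 with a median of 1.98 in WT animals, and from -0.05 to 2.41 with a median of 1.14 in KI animals. Of the 10 KI libraries, 6 lay below the lowest WT library, and the remaining ones spread through the WT range. The mean was 1.95 ± 0.43 in WT and 1.33 ± 0.81 in KI animals (SD, n = 10 each), so the KI animals were also more dispersed. The mean of the KI animals was lower by 0.80 among females and by 0.44 among males (log2, 5 animals of each sex and genotype). The male difference rested on KI male 2, the lowest library: without it the difference was -0.05. The gene of the smaller cluster that was lowest relative to WT, which ranks 73 by level, differed by -1.02, and the next, of rank 120, by -0.98. This second gene had 2.74 to 10.7 TPM in WT animals, with a median of 4.95, and 0.34 to 5.59 TPM in KI animals, with a median of 2.37.

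**Figure D3:**
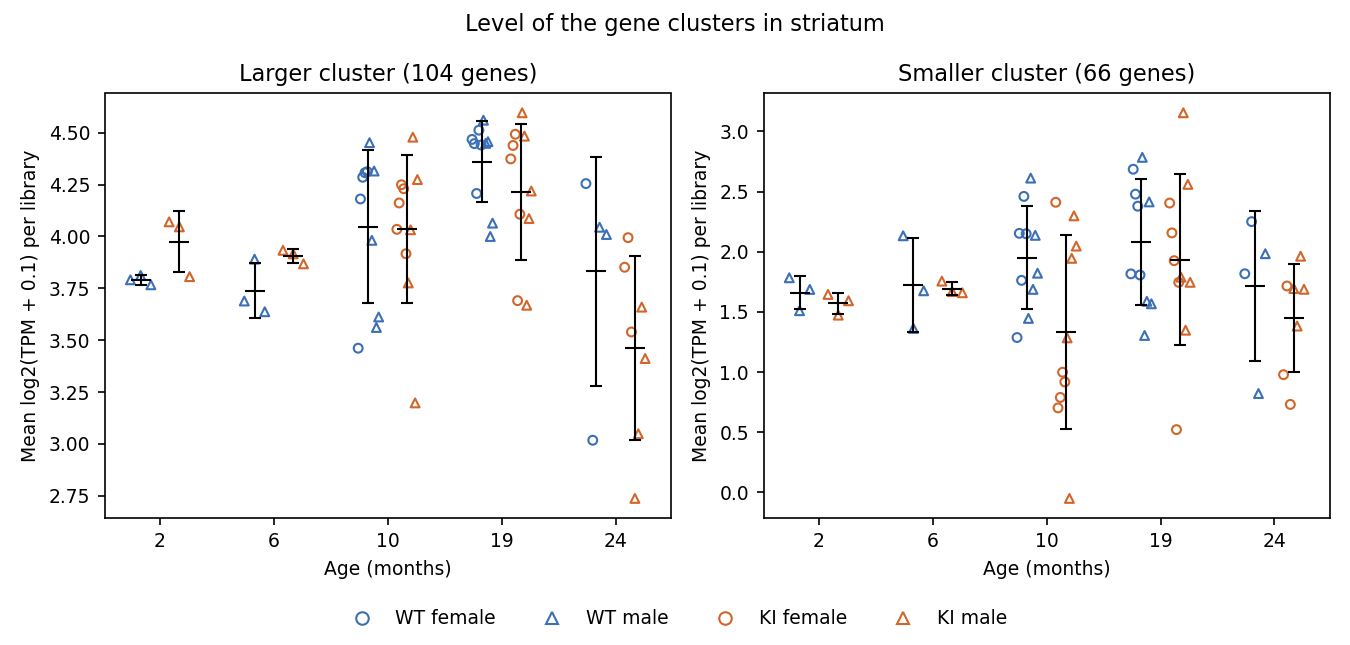
Mean log2(TPM + 0.1) of the larger cluster (left) and the smaller cluster (right) in each striatum library by age, with circles for females, triangles for males, blue for WT and orange for KI. Black lines give the mean and SD of each age and genotype (n = 3, 3, 10, 10 and 4 for WT and 3, 3, 10, 10 and 7 for KI). For the smaller cluster at 10 months 6 of 10 KI libraries lie below every WT library, and at 24 months KI males 1 and 2 are the lowest KI libraries for the larger cluster.

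At 19 months, as a description, 153 of 200 members were lower in KI animals, with a median of -0.08. The median was -0.03 without KI female 4, -0.11 without KI male 2 and -0.04 with the cortex-enriched score as a covariate. The larger cluster had 81 of 104 and the smaller 55 of 66 genes lower. Cortex-enriched genes had a median of 0.11, with 67 of 93 higher. The smaller cluster's mean ranged from 1.30 to 2.78 in WT animals and from 0.52 to 3.15 in KI animals, so the KI animals extended past the WT range at both ends. By sex it was lower by 0.48 in KI females and higher by 0.19 in KI males (log2 means of 5 animals each). The female value was -0.18 without KI female 4, and the male value was -0.07 without KI male 2.

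At 24 months 0 of 200 members were called, against 0% of all genes in either direction. Here 185 members were lower in KI animals, with a median of -0.44, which corresponds to 74.0% of the WT level, beside a median of 0.01 for all genes tested. The larger cluster had 100 of 104 genes lower and the smaller cluster 61 of 66. At an unadjusted p under 0.05 there were 23 members, 22 of them lower and 18 in the larger cluster, against 2.99% of all genes. That count was 81 without WT female 2, 9 without WT male 2, 59 in 1 fit of all striatum libraries and 14 with the cortex-enriched score as a covariate. For these alternatives the share of all genes was not computed, and 2.99% belongs to the main fit. All KI animals lay above all WT animals for 1 member, of the smaller cluster, against 0.243% of all genes, and below for 1 member, of the larger cluster, against 0.185%.

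The mean of the larger cluster was 3.02, 4.01, 4.04 and 4.25 in the WT libraries of 24 months and ran from 2.74 to 3.99 with a median of 3.54 in the 7 KI libraries. All 7 KI libraries lay below the WT median, and 1 lay below the lowest WT library, female 2, which was far from the others. The difference of means was 0.16 among females and -0.81 among males (log2, 2 WT animals of each sex), and the female value turned to -0.46 without WT female 2. In the smaller cluster it was -0.89 among females and 0.28 among males, and the male value turned to -0.30 without WT male 1. Neither cluster's difference by sex was tested.

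Cortex-enriched genes were higher in KI animals at 24 months, as at 10 and 19 months, and lower at 2 and 6 months, by their medians. Of the 136 such genes, 107 were tested in striatum at that age, 91 were higher in KI animals, with a median of 0.33, and 0 were called. Their summed level was 384 to 569 TPM in WT and 476 to 1254 TPM in KI libraries, with the second highest KI library at 857 and the third at 698 TPM. Without KI males 1 and 2 the members' median was -0.27, with -0.25 in the larger cluster and -0.49 in the smaller. In that fit 12 members had an unadjusted p under 0.05, as did 589 of all 15467 genes tested. With the cortex-enriched score as a covariate in all libraries the members' median was -0.26. The larger cluster's difference was thus smaller without these animals and that of the smaller cluster was not.

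The 6 members of highest level all belonged to the larger cluster and were lower in KI animals at 24 months. The most abundant had 479, 694, 714 and 740 TPM in the WT libraries of 24 months and 281 to 617 TPM with a median of 439 in the 7 KI libraries. Of the 7 KI libraries, 5 were below every WT library. Its log2 difference was -0.63 ± 0.24 (SE) at 24 months, against -0.04, 0.10, -0.02 and -0.06 at 2, 6, 10 and 19 months. At rank 3 the values were 227, 375, 419 and 489 TPM in WT and 127 to 369 TPM with a median of 273 in KI libraries, a difference of -0.72 ± 0.34. The genes of rank 2, 4, 5 and 6 differed by -0.58, -0.46, -0.49 and -0.70 at 24 months. No gene among these passed the test at that age. These differences include KI males 1 and 2 and were not computed without them. Those males had 353 and 281 TPM at rank 1, 130 and 127 TPM at rank 3, and 82.4 and 105 TPM at rank 6. At each of these ranks the other 5 KI libraries were higher.

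The members' signs over the 5 ages differed between the clusters. Of the 199 members tested at every age, 36 were lower in KI animals at all 5, and all 36 were in the smaller cluster, which has 65 such genes. Across all 14997 genes tested at every age 2.49% were lower at all 5. Only 3 members were higher at all 5 ages, against 2.19% of genes. Lower values at 10, 19 and 24 months together were found for 99 members, 43 in the larger and 53 in the smaller cluster, against 17.2% of genes. The lowest of the 5 differences fell at 24 months for 98 of 104 genes of the larger cluster, 21 of 65 of the smaller, and 24.3% of all genes. Since the genes of a cluster move together and 19 months chose the members, these counts are a description.

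Averaged with equal weight over 2, 6, 10 and 24 months in 1 fit of all striatum libraries, 0 members were called, against 0% of all genes that rose and 0.00607% that fell. The members' median was -0.08, with -0.04 in the larger cluster and -0.31 in the smaller, where 63 of 66 genes were lower. At an unadjusted p under 0.05 there were 7 members, against 1.58% of all genes, and the lowest adjusted p of any member was 1. When 1 library was left out that count ran from 3 (without WT 10-month male 2) to 18 (without KI 10-month female 1). Without KI males 1 and 2 of 24 months it was 4, beside 300 of all 16433 genes tested. The members' median was then -0.04, with -0.0046 in the larger cluster and -0.31 in the smaller. The first 2 genes by p in each direction are named below with levels in CPM, the scale of the test. CPM are counts scaled by the total of the library after its adjustment by a TMM factor.

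ENSRNOG00000023148, of the smaller cluster and rank 83, was level between genotypes in the younger animals and higher in KI animals of the older ages. At 2 months it had 48.6, 54.2 and 59.0 CPM in WT and 53.0, 53.8 and 56.5 CPM in KI animals. At 6 months the values were 37.4, 45.5 and 46.2 CPM against 40.5, 42.3 and 44.5 CPM. At 10 months WT animals had 36.7 to 80.4 CPM with a median of 46.6, and KI animals 28.8 to 69.0 CPM with a median of 50.3. The genotypes overlapped at these 3 ages. At 19 months, as a description, the range was 34.1 to 48.5 CPM in WT and 48.7 to 76.8 CPM in KI animals, with no overlap in CPM, although the TPM values overlapped at 7.64 to 11.5 and 8.83 to 19.2. At 24 months the WT libraries had 37.2, 40.3, 42.2 and 46.9 CPM and the KI libraries 53.7 to 98.1 CPM with a median of 74.9. All 7 KI animals lay above all 4 WT animals. The log2 difference was 0.01, -0.02, -0.02, 0.60 and 0.76 from 2 to 24 months, with an SE of 0.18 at 24 months and an adjusted p of 0.998. It was 0.57 without KI males 1 and 2.

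In that respect ENSRNOG00000023148 went against its cluster, whose other members were mostly lower at 24 months. In cortex the gene was level between genotypes at 19 months, with 1.80 ± 0.45 TPM in WT and 1.77 ± 0.40 TPM in KI animals (SD, n = 10 each). At 24 months its cortex level was 2.15 ± 0.25 TPM in WT (n = 4) and 1.58 ± 0.46 TPM in KI animals (n = 7). In cerebellum of 24 months it was 1.17 ± 0.17 TPM in WT (n = 4) and 1.71 ± 0.44 TPM in KI animals (n = 7), a log2 difference of 0.49 that did not pass the test (adjusted p = 0.23).

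ENSRNOG00000004179, of neither cluster and rank 100, had the smallest p of the members that were higher on average, at 0.28 ± 0.13 (log2, SE). At 2 months it had 6.17, 6.35 and 7.41 CPM in WT and 8.61, 8.71 and 9.48 CPM in KI animals, with no overlap. At 6 months it had 3.60, 3.93 and 6.46 CPM in WT and 4.70, 4.74 and 5.02 CPM in KI animals, within the WT range. At 10 months it had 2.54 to 6.09 CPM with a median of 4.09 in WT and 3.51 to 7.71 CPM with a median of 5.22 in KI animals. At 24 months it had 3.02, 3.29, 3.69 and 5.51 CPM in WT and 3.17 to 9.17 CPM with a median of 3.99 in KI animals. The groups overlapped at 6, 10 and 24 months, and the difference at 24 months was 0.24 with KI males 1 and 2 and 0.04 without them.

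ENSRNOG00000009336, of the smaller cluster and rank 102, was lower in KI animals at all 5 ages, by -0.24, -0.16, -0.27, -0.09 and -0.44 (log2), and on average by -0.28 ± 0.11 (SE). At 24 months it had 5.87, 7.01, 7.61 and 7.66 CPM in WT and 2.89 to 6.77 CPM with a median of 5.28 in KI animals. The KI values reached into the WT range, and the log2 difference at 24 months was -0.49 without KI males 1 and 2. At 10 months the ranges were 5.15 to 13.4 CPM in WT and 5.01 to 9.80 CPM in KI animals, with medians of 8.28 and 7.14. At 2 months it had 4.83, 6.66 and 6.75 CPM in WT and 4.72, 5.18 and 5.53 CPM in KI animals, and at 6 months 5.82, 6.31 and 8.19 against 5.66, 6.18 and 6.36 CPM.

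ENSRNOG00000060093, of the larger cluster and rank 87, had an average difference of -0.32 ± 0.14 (SE), with 0.27 at 2 months and -0.57, -0.14, -0.21 and -0.86 at 6, 10, 19 and 24 months. At 6 months it had 1.93, 1.95 and 1.96 CPM in WT and 1.15, 1.23 and 1.55 CPM in KI animals, with no overlap. At 24 months it had 1.02, 2.37, 2.67 and 2.87 CPM in WT and 0.61 to 1.82 CPM with a median of 1.40 in KI animals. The WT female with 1.02 CPM lay inside the KI range. Without KI males 1 and 2, which held the lowest values of that age, its difference was -0.55.

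**Figure D4:**
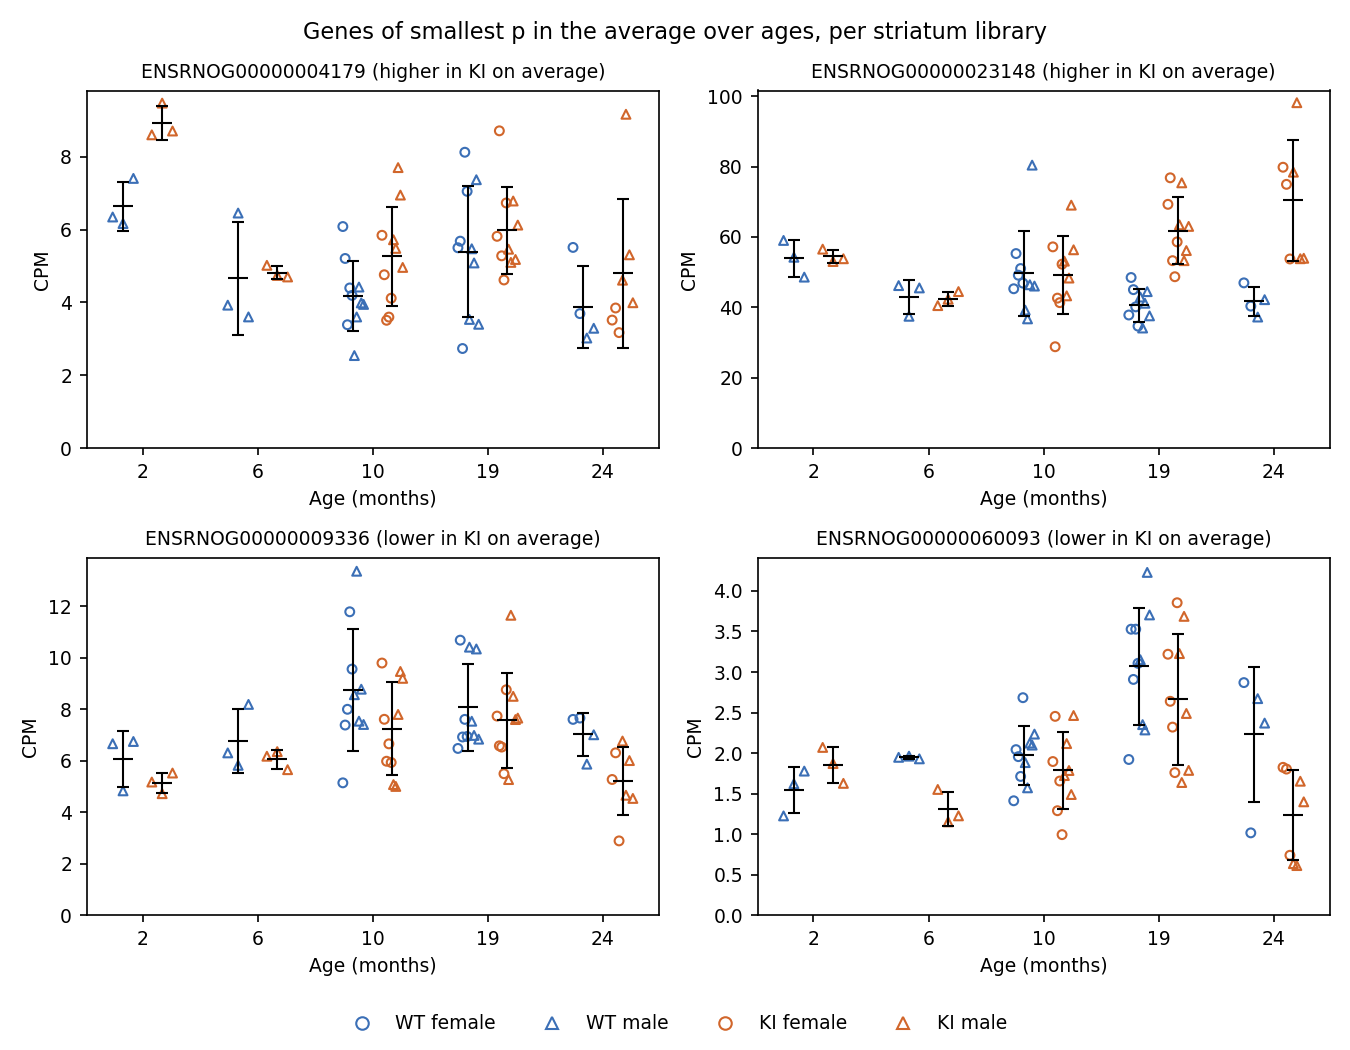
CPM of the 4 named genes in each striatum library by age, with circles for females, triangles for males, blue for WT and orange for KI, and black lines for the mean and SD (n = 3, 3, 10, 10 and 4 for WT and 3, 3, 10, 10 and 7 for KI). ENSRNOG00000023148 lies above the WT range in all 7 KI libraries of 24 months (53.7 to 98.1 against 37.2 to 46.9 CPM), and the other 3 genes overlap between genotypes at that age.

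The first 6 genes by p in each direction of the average, which include the 4 named above, are given as a description. Genes of a cluster move together, so these tallies are not independent counts. Of the 6 members first by p among those higher in KI animals, 4 were among the 30 genes outside both clusters, 1 was in the larger and 1 in the smaller cluster. Of the 6 first among those lower, 4 were in the smaller cluster. The gene of rank 58, of neither cluster, had 9.17 to 16.8 TPM with a median of 15.1 in WT and 15.1 to 23.5 TPM with a median of 19.2 in KI animals of 10 months, a difference of 0.39 ± 0.10. At 24 months its difference was -0.21. In the smaller cluster the gene of rank 158 had 1.55 to 3.57 TPM in WT and 1.37 to 2.10 TPM in KI animals of 24 months, a difference of -0.64 ± 0.18.

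Between 10 and 24 months striatum-enriched genes fell in KI animals. In KI striatum 79 members fell and 1 rose at an adjusted p under 0.05, against 6.73% of all genes that fell and 8.74% that rose. The members' median change was -0.41, which corresponds to 75.3% of the 10-month level, beside 0.01 for all genes tested. In the larger cluster 59 of 104 genes fell, with a median of -0.58, and among the 30 genes outside both clusters 19 fell, with a median of -0.50. In the smaller cluster 1 gene fell, ENSRNOG00000009336, and 1 rose, ENSRNOG00000023148, with a median of -0.07.

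In WT striatum the same ages gave 0 called members, against 0.14% of all genes that rose and 0.0121% that fell, in groups of 10 and 4 animals. The members' median change was -0.15, with -0.14 in the larger cluster, -0.15 in the smaller and -0.29 among the other genes. At an unadjusted p under 0.05 there were 15 members, against 7.09% of all genes. This number was 5 without WT 24-month female 2 and 24 without WT 24-month male 1. Of the 79 genes that fell in KI animals, 75 were also lower at 24 months in WT animals, with median changes of -0.71 in KI and -0.20 in WT. The difference between the genotypes' changes gave 0 called members, against 0% of all genes, so the change was not shown to differ between genotypes. Its median was -0.45 in the larger cluster, 0.06 in the smaller and -0.24 among the others, and 30 members had an unadjusted p under 0.05, against 6.48% of all genes. That count was 70 without WT 24-month female 2 and 12 without WT 24-month male 1.

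**Figure D5:**
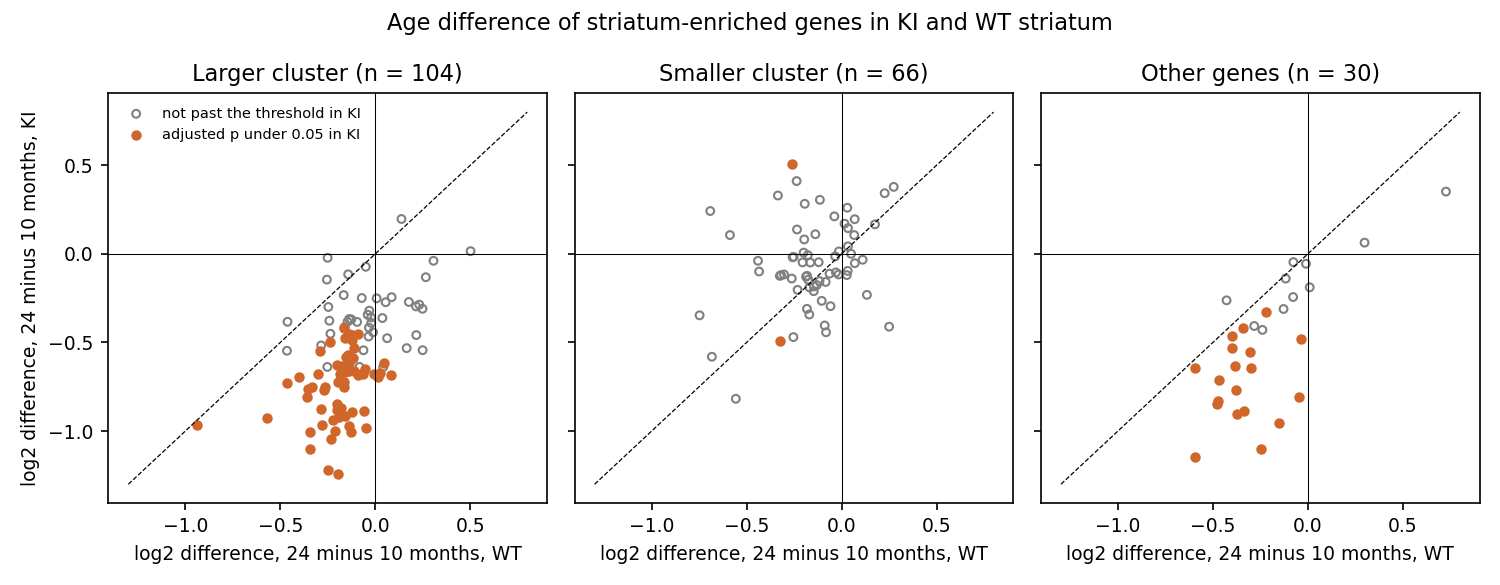
Log2 difference between 24 and 10 months in WT striatum (horizontal) and in KI striatum (vertical) for each of the 200 genes, by cluster. Filled points passed an adjusted p of 0.05 in KI animals and the dashed line marks equal change. Most filled points lie in the larger cluster (59) and among the other genes (19), below the dashed line, and the smaller cluster is centred near 0 with 2 filled points.

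The 6 genes of highest level were among the genes that fell in KI animals, by -0.68, -0.66, -0.89, -0.58, -0.87 and -0.94 in order of rank. The gene of rank 1 had 450 to 940 TPM with a median of 707 in KI animals of 10 months and 281 to 617 TPM with a median of 439 at 24 months, and in WT animals medians of 787 and 704 TPM. The ages overlapped in both genotypes. The change of ENSRNOG00000023148 was 0.51 ± 0.12 in KI animals (adjusted p = 0.0024) and -0.26 ± 0.15 in WT animals, and the test of the difference between them, 0.77 ± 0.20, had an adjusted p of 0.256. The change of ENSRNOG00000009336 was -0.49 ± 0.16 in KI animals (adjusted p = 0.029).

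KI males 1 and 2 weighed on this comparison as well. Without them 41 members fell and 1 rose in KI striatum, and the median change was -0.31. Of all 16433 genes tested 842 fell and 1403 rose, which is 13.7% called in either direction. For the difference between the genotypes' changes the median was then -0.25 in the larger cluster, 0.05 in the smaller and -0.19 among the others. For that difference 11 members had an unadjusted p under 0.05, as did 1153 of all 16433 genes tested. The larger cluster then had 28 genes that fell and a median of -0.41. ENSRNOG00000023148 was no longer past the threshold (0.36, adjusted p = 0.058), and the gene that rose was another, in the larger cluster. ENSRNOG00000009336 stayed past it (adjusted p = 0.045). With the cortex-enriched score as a covariate in all libraries 87 members were called. The share of all genes called in that fit was not computed, so this count has no reference.

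The members are also expressed, at lower levels, outside the striatum. In cortex 159 were tested at 10 months and 163 at 24 months, and 0 were called at either age, against 0% of all genes. The medians were -0.05 at both ages, and 11 and 13 members had an unadjusted p under 0.05, against 6.66% and 5% of all genes.

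In cerebellum, where the members are low, 139 passed the filter at 24 months and 6 were higher in KI animals at an adjusted p under 0.05, against 1.2% of all genes that rose. No member fell, against 0.969%. The rule chose members that were low in WT cerebellum at 19 months, and a gene could pass the filter through the KI libraries alone. Both may shape these counts by direction, which was not tested. Of the 6, 3 were in the larger cluster and the other 3 in neither. The gene of rank 121 had 0.61 to 0.72 TPM in the 4 WT and 1.65 to 2.26 TPM in the 7 KI cerebella, with no overlap, a log2 difference of 1.49 ± 0.15 (adjusted p = 0.00023). That of rank 31 had 5.16 to 5.79 TPM in WT and 7.81 to 9.96 TPM in KI, again with no overlap, and differed by 0.71 ± 0.11. That of rank 3 had 6.07 to 7.05 TPM in WT and 7.998 to 14.1 TPM in KI and differed by 0.67 ± 0.15. The genes of rank 5, 81 and 37 differed by 0.48, 1.43 and 1.32. At rank 5 the genotypes overlapped, with 17.6 to 20.1 TPM in WT and 18.5 to 30.1 TPM in KI. The gene of rank 81 was low, at 0.33 to 0.62 TPM in WT and 0.85 to 2.41 TPM in KI. That of rank 37 was also low and overlapped, at 0.29 to 0.64 TPM in WT and 0.62 to 1.31 TPM in KI.

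In striatum of the same age the genes of rank 3 and 5 were lower in KI animals, by -0.72 and -0.49, so the direction in cerebellum was opposite. Without WT male 1, 2 members were called. In cerebellum at 19 months, as a description, the 6 genes were higher in KI than in WT animals. Their means there were 1.36 against 0.58 TPM for rank 121, 8.06 against 4.44 TPM for rank 31, and 5.90 against 4.27 TPM for rank 3. The WT cerebella of that age took part in choosing the members for low values, so this is not a second test.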

How the data were processed

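The authors deposited 2 tables over 145 libraries. Per the labels' protocols, tissue was frozen, total RNA extracted with a Qiagen kit and libraries made with Illumina protocols. The first table holds the authors' estimated counts, of which 8.12% of values were not whole and which were rounded here. In the second, called FPKM by the authors, every deposited library is scaled to the same total, so its values were read as TPM. Per the file headers, the reference was Rat.B6.0. The sources used here do not give the aligner, counting tool or annotation.

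The members and lists were chosen with earlier results of these data known. Genes were tested with edgeR 4.0.16 in R 4.3.3 (TMM factors, filterByExpr, robust quasi-likelihood F test). Sex entered as a covariate at 10, 19 and 24 months and in the fit of all ages. Each region and age had its own fit, and the average over ages and the age comparisons came from 1 fit of all striatum libraries. P-values were adjusted by Benjamini-Hochberg over all genes tested. Levels per gene are TPM, and the search for libraries far from the rest used CPM with TMM factors. Such CPM are also given for the 4 named genes. CPM was chosen for them after their values were seen. Named genes were the first 2 by p in each direction of the average over ages, and the 6 of highest level. Clusters used a cut height of 0.6, set after the data were seen. The cortex-enriched score is a mean of log2 CPM (prior count 2). The fits were tested on simulated data. Lists of striatal gene families and cell types needed symbols and were not tested here. No 2 libraries held identical values, and P-values measure the spread between animals. Alternatives were RLE factors, DESeq2 1.42.0, 2 count filters, limma-trend (3.58.1) on log2 TPM plus 0.1 or 1, other fold thresholds, a replicate block, 2 library covariates and leaving out libraries.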

Additional observations from a re-analysis of the deposited data

Results flagged for a closer look

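Of 84 groups of 4 to 10 libraries examined for a library far from the rest, 6 held one, and chance gives about 1 in 20. The mean of the 30 genes outside both clusters was lowest in WT 10-month male 2, at 2.46 against 2.64 in the nearest library. ENSRNOG00000023148 was highest in WT 10-month male 4, at 80.4 CPM against 55.3 CPM in the nearest. ENSRNOG00000004179 was highest in KI 19-month female 2, at 8.72 CPM against 6.79 CPM, and in KI 24-month male 2, at 9.17 CPM against 5.31 CPM. Among KI animals of 19 months, the gene of rank 1 by level was highest in female 4, at 1692 CPM against 1288 CPM. The gene of rank 3 was highest in male 3, at 914 CPM against 720 CPM. In TPM male 1 was the highest of these animals for both genes. It had 822 TPM at rank 1, against 815 TPM in female 4. At rank 3 it had 537 TPM, against 480 TPM in male 3.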

How the results depend on the processing

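Medians were compared with the spread (SD) over WT libraries of an age, 0.27 at 10 months and 0.31 at 24 months. A turn of sign at 10 months, from -0.04 to 0.08, lay within it. Counts of called members that stayed at 0 were also taken as kept, so the tally says little about small differences. Of 179 alternatives that left out no single library, 174 kept a count of called members within 1.5 times, or a median within that spread. The exceptions were 1 member called at 2 months and 3 at 6 months in DESeq2, 42 called between 10 and 24 months in KI striatum without KI males 1 and 2, 3 called in cerebellum with the replicate block, and a median of 0.18 at 2 months for members at least 8-fold enriched. Replicate numbers were not taken as pairs: over 20 pairs of the same number r ran from -0.31 to 0.43 with a median of -0.04. At 2 months the animal labels of each pair share their first part, and r was 0.013, 0.15 and 0.16. That median cannot decide on pairing at 1 age, which was not tested. With a replicate block 52 members had an unadjusted p under 0.05 at 2 months, against 44 without it. The median at 24 months in striatum was -0.24 to -0.55 over its alternatives. The average of 10 and 24 months alone was added after the data were seen and gave 0 called members and 77 with an unadjusted p under 0.05. In striatum, counts of members by unadjusted p also moved by over 1.5 times with single libraries, as given beside those results. Shares of all genes belong to the main fits, and to the fits without KI males 1 and 2 where given. They were not computed for the other alternatives. Leaving out each library in turn gave 0 to 6 called members at 2 months (6 without KI male 3), 0 to 3 at 6 months (3 without WT male 1), 57 to 93 between 10 and 24 months in KI striatum and 2 to 6 in cerebellum. The medians then ran from 0.077 to 0.16 at 2 months, 0.0067 to 0.052 at 6, -0.12 to 0.017 at 10, -0.11 to -0.03 at 19 and -0.50 to -0.34 at 24 months. No cause was tested. With 3 animals of each genotype at 2 and 6 months and 4 WT animals at 24 months, small changes were not detectable. Leaving out libraries in the differences by sex was also added after the data were seen.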
